A study of Mus musculus with 11 samples.

Results

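The genes described here encode antimicrobial lectins and peptides that the gut epithelium secretes or displays on its surface: Reg3b, Reg3g, Reg4, Zg16, Itln1, Dmbt1, Retnlb, Ang4, Lypd8 and Lyz1. The 10 genes were chosen by name from the 43346 genes of the count table, and the rule uses no measured value, although earlier results of these data were known when they were chosen. All 10 passed the filter on low counts, as did 19863 genes in total. The samples were colonic messenger RNA of male Swiss Webster mice aged 8 to 10 weeks, 5 of them germ-free and 6 humanized. The humanized mice had been germ-free until 4 to 5 weeks of age, when each was given 300 μL of a stool suspension from 1 human donor by gavage, and they were kept for a further 4 to 5 weeks. Mice of both groups were housed singly in isolators and the labels give no other treatment and no allele. Because 1 donor supplied every humanized mouse, the comparison is of germ-free mice with mice carrying that donor's microbiota.

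The colon keeps its bacteria away from the epithelium with a layer of mucus and with secreted proteins that bind or kill bacteria. C-type lectins of the Reg3 family bind the peptidoglycan of Gram-positive bacteria or the surface of Gram-negative bacteria, and their transcription in the gut is known to depend on interleukin 22 acting through STAT3 and on MyD88 signalling. Goblet cells secrete Zg16 and Retnlb, enterocytes make Lypd8 and Dmbt1, and Paneth cells of the small intestine are the usual source of lysozyme 1 and angiogenin 4.

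Of these 10 genes, 6 were higher in humanized mice, 1 was lower, and 3 did not pass the test. Reg3b rose 9.55-fold, Retnlb 8.34-fold and Reg3g 4.35-fold, while Dmbt1, Zg16 and Lypd8 rose 1.68-fold, 1.46-fold and 1.37-fold from levels that were already high. Itln1 was the gene that fell, by 2.92-fold. A change was called at a false discovery rate (FDR) below 0.01 in edgeR's exact test with Benjamini–Hochberg adjustment over all tested genes, and by this rule 9.2% of tested genes were higher and 10.1% were lower in humanized mice. Every normalised value of one group lay beyond every value of the other for 5 genes that were higher and 1 that was lower, against 8.67% and 9.73% of tested genes. The median log2 fold change (LFC, humanized over germ-free) of the 10 genes was 0.64, and that of all tested genes was 0.01.

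Between 49097005 and 64148538 reads were counted on genes per germ-free mouse and between 39125290 and 54219854 per humanized mouse. The 10 genes together took 0.846% to 0.968% of these reads in germ-free mice and 1.23% to 1.66% in humanized mice. In whole colon, fewer cells of a type and less RNA per cell cannot be told apart. All 10 smooth muscle markers were lower in humanized mice, with a median LFC of −2.03 and a summed level of 424 to 1189 RPKM in germ-free and 63.3 to 421 RPKM in humanized mice, where RPKM is reads per kilobase of gene, scaled to the normalised library size. The quasi-likelihood test called 6 of these 10 markers, and the exact test without germ-free mouse 4 called 7. Of 11 epithelial markers 2 were higher, with a median LFC of 0.18 and summed levels of 3787 to 5068 RPKM and 4230 to 5731 RPKM. When libraries were scaled to these epithelial markers the median LFC of all genes became −0.20, and the called genes kept their direction: the LFC of Reg3b was then 3.02, of Retnlb 2.85, of Reg3g 1.93, of Dmbt1 0.52, of Zg16 0.32 and of Itln1 −1.75, all at FDR below 0.01. Of the 7 called genes, only Lypd8 lost its call under that scaling, with an LFC of 0.23 (edgeR exact test, FDR = 0.0665). Humanized mouse 6 stood apart, with 7 genes over 5 times the level of every other mouse (at least 10 CPM, counts scaled to library size, in that mouse), and results that turn on it are given with and without it.

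**Figure D1:**
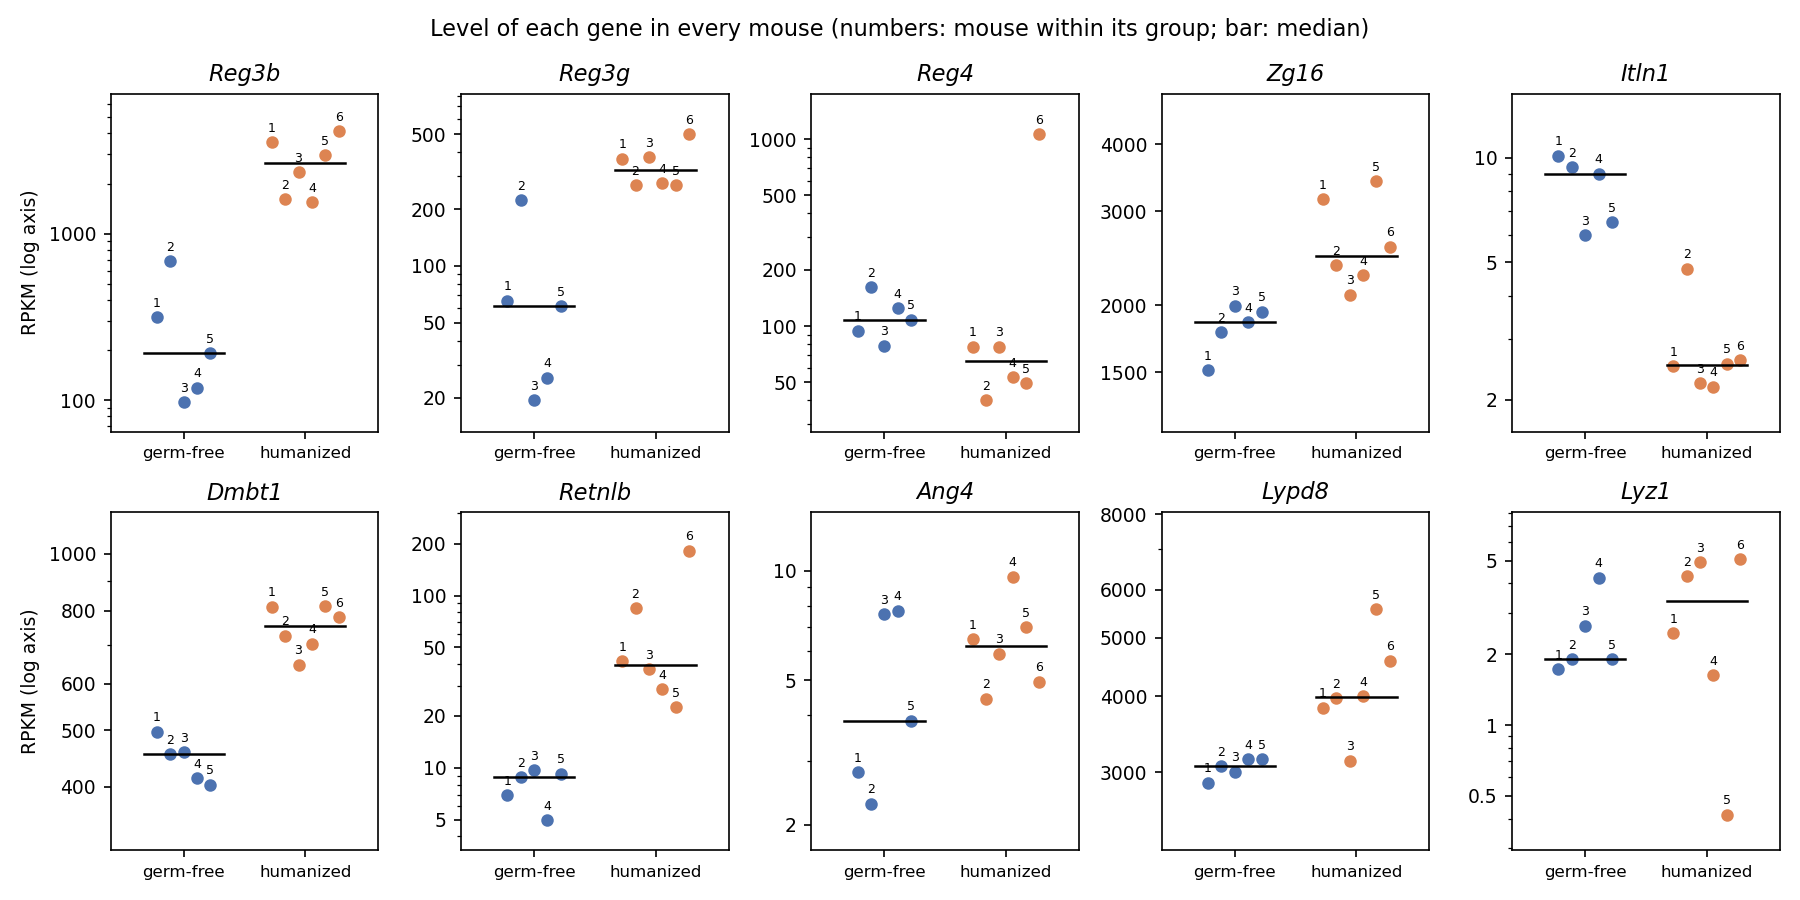
Level of each of the 10 genes in every mouse, in RPKM on a log axis that differs between panels, with germ-free mice in blue, humanized mice in orange, the number of each mouse beside its point and the group median as a bar. The groups lie apart for Reg3b, Reg3g, Zg16, Itln1, Dmbt1 and Retnlb, and humanized mouse 6 lies at 1063 RPKM for Reg4, above all other mice.

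**Figure D2:**
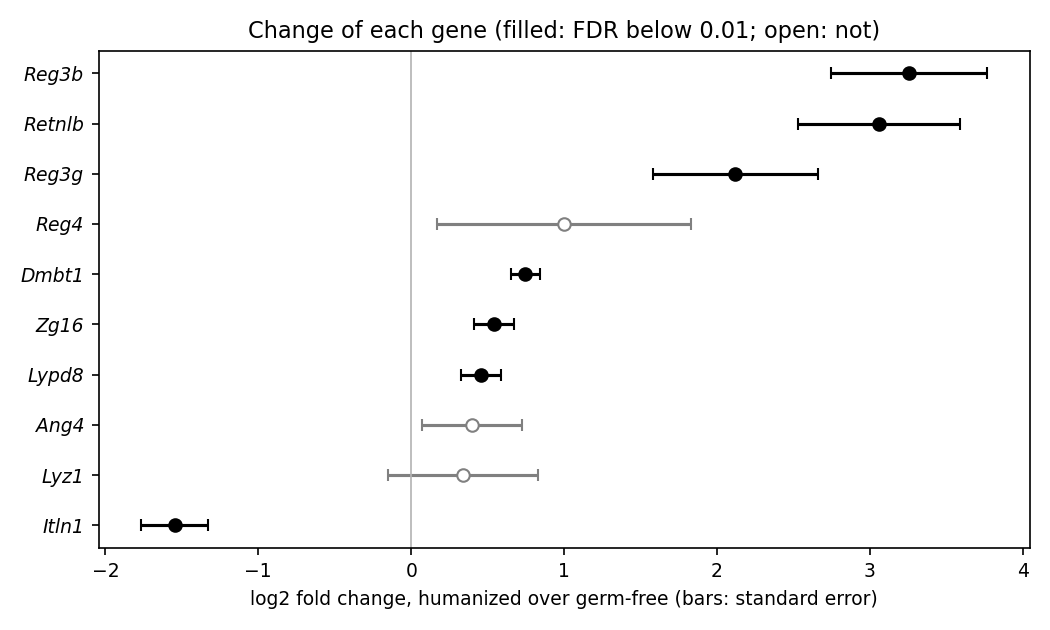
LFC of each gene, humanized over germ-free, as a point with its standard error as a bar, filled where the FDR was below 0.01. 6 filled points lie above 0, from Lypd8 at 0.46 to Reg3b at 3.26, and Itln1 lies at −1.55.

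Reg3b and Reg3g, which encode bactericidal C-type lectins of the Reg3 family, lie on chromosome 6 of mm10, the mouse genome build of the count table. Reg3b (ENSMUSG00000071356) spans chr6:78370885-78373466 and Reg3g (ENSMUSG00000030017) spans chr6:78466269-78468872. Reg4 (ENSMUSG00000027876), a more distant relative made by enteroendocrine and crypt secretory cells, spans chr3:98222156-98236748. The 250 bases before the start site of each are shown because the first 2 genes rose together and the other did not. They are RefSeq sequences on GRCm38.p6, written 5′ to 3′ on the strand of the gene, from chr6:78370635-78370884 on the plus strand for Reg3b, chr6:78468875-78469124 on the minus strand for Reg3g and chr3:98221906-98222155 on the plus strand for Reg4. Capitals mark matches to the STAT motif TTCNNNGAA and to the TATA motif TATAAA on either strand:
Reg3b: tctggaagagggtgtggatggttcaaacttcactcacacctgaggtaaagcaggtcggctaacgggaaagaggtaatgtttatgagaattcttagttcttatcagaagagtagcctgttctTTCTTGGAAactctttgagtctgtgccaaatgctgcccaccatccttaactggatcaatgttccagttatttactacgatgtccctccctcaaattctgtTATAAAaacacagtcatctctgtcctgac
Reg3g: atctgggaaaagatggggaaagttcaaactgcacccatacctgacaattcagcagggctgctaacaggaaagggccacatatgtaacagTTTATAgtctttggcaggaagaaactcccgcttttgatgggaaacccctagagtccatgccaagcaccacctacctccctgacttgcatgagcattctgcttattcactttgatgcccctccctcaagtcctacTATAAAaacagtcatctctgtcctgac
Reg4: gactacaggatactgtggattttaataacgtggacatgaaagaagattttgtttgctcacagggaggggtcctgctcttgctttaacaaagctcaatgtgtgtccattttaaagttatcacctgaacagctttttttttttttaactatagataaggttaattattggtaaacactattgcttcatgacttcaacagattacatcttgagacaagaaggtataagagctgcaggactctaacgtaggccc
The Reg3b window held the STAT motif at −129 and TATAAA at −29 from the start. TATAAA stood at −27 in the Reg3g window, which also held it on the opposite strand at −161 and held no STAT match. The Reg4 window held neither set of letters. Over 32851 promoter windows of the same length, 7.02% held the STAT motif and 12.4% held TATAAA, so that these matches describe the letters and are not shown to be sites. The Reg3b and Reg3g windows were identical at 173 of 247 aligned bases (70%). Between Reg3b and Reg4 this was 125 of 191 aligned bases (65.4%), and between Reg3g and Reg4 113 of 181 (62.4%). Bases set against gaps are left out, so fewer bases of the Reg4 window were compared. The table of promoters held 7 of the 10 genes, and among the other windows only that of Ang4 matched, with the STAT motif at −192 and the AP-1 motif TGANTCA at −122, which 6.75% of windows held. The CDX motif TTTATTG (4.2% of windows) was also searched, and the windows of the 7 genes did not hold it.

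Reg3b, which encodes the Reg3β lectin, was measured in the 5 germ-free mice at 315, 682, 97.7, 119 and 192 RPKM in the order of their numbers. In humanized mice its lowest level was 1548, its median 2649 and its highest 4118 RPKM. The groups did not overlap, germ-free mouse 2 being the highest of its group and humanized mouse 6 the highest of all. The mean rose from 281 ± 239 (SD, n = 5) to 2684 ± 1041 RPKM (SD, n = 6), with an LFC of 3.26 ± 0.51 (SE; FDR = 6.44e-09 by edgeR's exact test). By mean RPKM the gene moved from rank 124 to rank 17 of the tested genes. The spread within the germ-free group was wide, with a coefficient of variation of 85.2% against a median of 10.4% over all tested genes. Leaving out germ-free mouse 2 raised the LFC to 3.89, and leaving out each other mouse gave 3.04 to 3.37.

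Reg3g, which encodes the Reg3γ lectin that is active against Gram-positive bacteria, stood at 65.5, 222, 19.4, 25.5 and 61.0 RPKM in germ-free mice 1 to 5. Its level in humanized mice was 268 RPKM at the lowest, 322 at the median and 498 at the highest. The groups did not overlap, but germ-free mouse 2 lay not far below the lowest humanized mouse and stood 3.39 times above the next germ-free mouse. The mean rose from 78.8 ± 82.9 (SD, n = 5) to 342 ± 91.3 RPKM (SD, n = 6), an LFC of 2.12 ± 0.54 (SE; FDR = 5.86e-04 in edgeR's exact test). With edgeR's quasi-likelihood test the FDR was 0.0120, which does not pass. Without germ-free mouse 2 the LFC was 2.99 (edgeR exact test, FDR = 2.95e-13).

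The Reg3b and Reg3g levels moved together between mice of the same group. After the mean of each group was taken off the log2 CPM, Reg3b was the gene most like Reg3g among 10758 genes over the 11 mice, with Pearson's r of 0.92 and Spearman's rho of 0.85. Without germ-free mice 2 and 3, which lay farthest from the median, r was 0.79, and among the 6 humanized mice alone it was 0.74 (rho = 0.49). The next genes were Bend3 (r = 0.87), Slc7a1 (r = 0.84), Rpl36a-ps3 (r = 0.83) and Nhp2 (r = 0.83). These values share the same 11 libraries and are given as a description. The ratio of Reg3b to Reg3g in RPKM was 3.07 to 5.03 in germ-free mice and 5.64 to 11.04 in humanized mice, without overlap. This ratio depends on the deposited lengths, 759 bases for Reg3b and 2114 bases for Reg3g, which are the same in both groups. The GENCODE M21 exons span 1142 bases for Reg3b, which would bring the ratio to 2.04 to 3.34 and 3.75 to 7.34, and 2114 bases for Reg3g. Levels of Reg3b per length, and their ranks, carry the same limit.

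**Figure D3:**
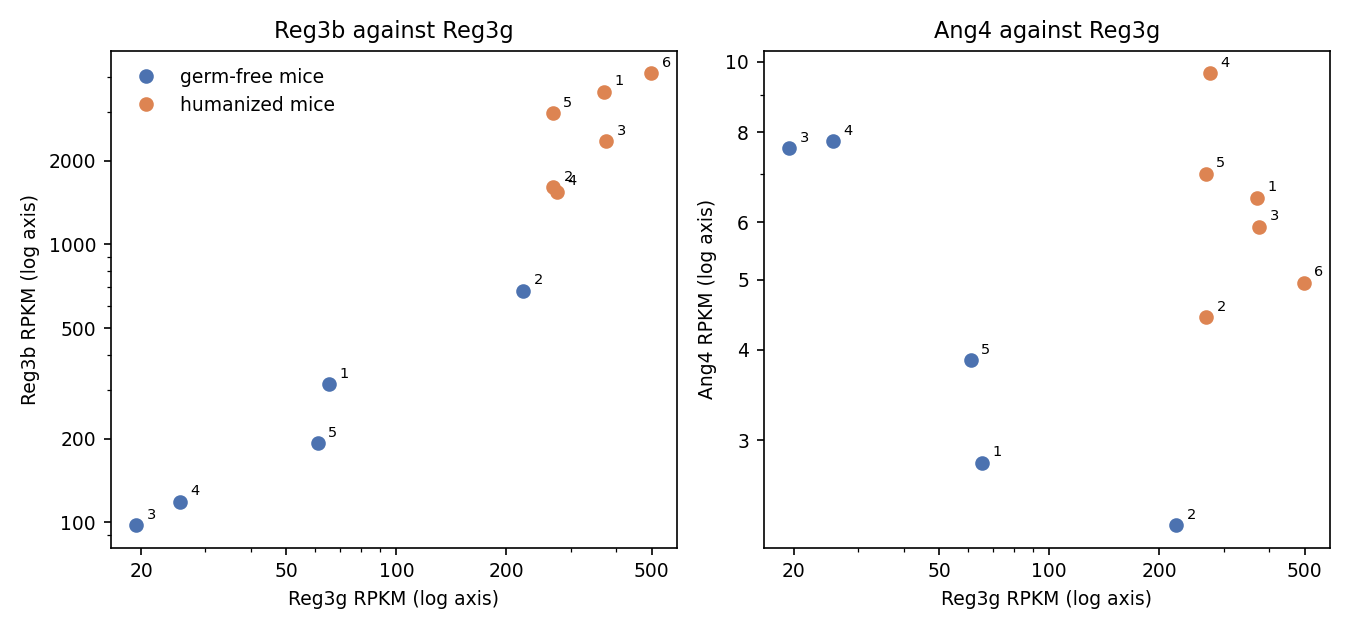
Level of Reg3b (left) and of Ang4 (right) against that of Reg3g in each mouse, in RPKM on log axes, with germ-free mice in blue, humanized mice in orange and the number of each mouse beside its point. After group means were taken off, r over the 11 mice is 0.92 for Reg3b and −0.84 for Ang4, and among the 6 humanized mice alone it is 0.74 and −0.38.

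Reg4 went another way in 5 of the 6 humanized mice. The gene was at 94.6, 161, 78.6, 125 and 108 RPKM in germ-free mice 1 to 5, and humanized mice 1 to 6 were at 77.5, 40.1, 77.6, 53.2, 49.3 and 1063 RPKM. Humanized mice 1 to 5 thus all lay below the lowest germ-free mouse, mice 1 and 3 only just, and mouse 6 lay 6.59 times above the highest of all other mice. The LFC over all mice was 1.0 ± 0.83 (SE; FDR = 0.389 in edgeR's exact test). Without humanized mouse 6 it was −0.94 with an FDR of 2.64e-04, so that this mouse set both the sign and the call. In mouse 6 the summed small intestinal enterocyte markers were at 410 RPKM, the highest of the humanized mice (177 to 410) and near the top of the germ-free range of 210 to 413. Among these markers Fabp6 was at 63.4 CPM in mouse 6, against at most 16.9 CPM in any other mouse. In contrast, the summed Paneth and deep crypt secretory cell markers at 414 RPKM were the lowest of all mice. Cd24a was the largest part of these sums on average, at 316 ± 47.7 (SD, n = 5) and 315 ± 71.4 RPKM (SD, n = 6). The sum without Cd24a was not computed, so the value of mouse 6 may rest on that gene. The part of these cell types in the Reg4 value was not tested.

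The other regenerating family genes were scarce. Reg1 was at 3.84 ± 3.10 (SD, n = 5) RPKM in germ-free and 2.28 ± 0.89 RPKM (SD, n = 6) in humanized mice, Reg2 at 2.28 ± 2.19 and 1.32 ± 0.72, and Reg3a at 5.41 ± 5.25 and 5.77 ± 4.92. Of these 3 tested relatives, 0 passed edgeR's exact test, 0 had an unadjusted p under 0.05, and 0 passed the quasi-likelihood test or DESeq2. Germ-free mouse 2 carried much of the Reg1 and Reg2 differences: without it the LFC of Reg1 went from −0.75 to −0.15 and that of Reg2 from −0.79 to −0.074. Summed, the 3 reached at most 29.5 RPKM in a mouse. Of 10 markers of pancreatic acinar cells, another source of Reg proteins, 2 were tested and 1 was higher (Cela1, LFC = 0.44), while no untested one exceeded 26 counts in a mouse. The Cela1 call was lost in the quasi-likelihood test (FDR = 0.0103), without germ-free mouse 4 (edgeR's exact test, FDR = 0.0132) and when libraries were scaled to epithelial markers (LFC = 0.24) or to total counts (LFC = 0.26).

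Zg16 (ENSMUSG00000049350, chr7:127050156-127051977) encodes a goblet cell lectin of the mucus that binds peptidoglycan and aggregates Gram-positive bacteria. It was at 1512, 1784, 1998, 1862 and 1949 RPKM in germ-free mice 1 to 5, and at 2096 to 3416 RPKM with a median of 2479 in humanized mice. No humanized mouse fell below a germ-free one, although the lowest humanized mouse, number 3, was close to germ-free mouse 3. The mean rose from 1821 ± 191 (SD, n = 5) to 2651 ± 523 RPKM (SD, n = 6), an LFC of 0.54 ± 0.13 (SE; FDR = 6.19e-04 in edgeR's exact test). The quasi-likelihood test gave an FDR of 0.0104, just short of the threshold. With ranks of 16 in germ-free and 18 in humanized mice, Zg16 was among the most abundant genes of the colon in both. Its deposited length of 636 bases is shorter than its GENCODE M21 exons (1257 bases), with which its RPKM would be 1.98 times lower. For the 8 members other than Reg3b and Zg16 the exons were 0.999 to 1.13 times the deposited length.

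Itln1 (ENSMUSG00000038209, chr1:171518122-171535294) encodes intelectin 1, a lectin that binds sugars found on microbes and not on mammalian cells. Its levels were low, at 10.1, 9.41, 5.98, 9.0 and 6.51 RPKM in germ-free mice 1 to 5 and from 2.18 to 4.79 RPKM with a median of 2.53 in humanized mice. Every humanized mouse lay below every germ-free mouse, and humanized mouse 2 was the highest of its group. The mean fell from 8.21 ± 1.85 (SD, n = 5) to 2.81 ± 0.98 RPKM (SD, n = 6), with an LFC of −1.55 ± 0.22 (SE; FDR = 9.58e-09 by edgeR's exact test). Over the 11 fits that left out 1 mouse the LFC stayed between −1.77 and −1.46, the lowest value being without humanized mouse 2. Markers of the small intestine and of Paneth and deep crypt secretory cells moved in both directions. Of 8 tested small intestinal markers 3 fell (Apoc3 by 3.33, Slc10a2 by 0.67 and Sis by 1.59 on the log2 scale). Fabp6 (LFC = 0.94), Apoa4 (1.02), Alpi (0.40), Rbp2 (−0.39) and Apoa1 (−2.26) did not pass. Of 8 secretory cell markers Mptx1, Mmp7 and Mptx2 fell. Nupr1 (LFC = 0.48), Habp2 (0.06), Cd24a (−0.01), Kit (−0.29) and Pnliprp2 (−0.37) did not pass. The summed small intestinal markers were at 210 to 413 RPKM in germ-free and 177 to 410 RPKM in humanized mice, and the part of these cells in the Itln1 result was not tested. edgeR's quasi-likelihood test called 1 marker of each list lower, and with the replicate number of mice 1 to 5 as a block 0 of either. Sis lost its call in DESeq2 and without any of 9 mice in turn, and the LFC of Apoc3 was −4.07 without humanized mouse 6. Of 3 tested Hox genes of the posterior gut, Hoxd11 (LFC = −1.52) and Hoxd10 (LFC = −1.25) were lower, and their part was not tested either. Neither Hox gene passed the quasi-likelihood test (FDR = 0.0111 and 0.0137).

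Dmbt1 (ENSMUSG00000047517, chr7:131032076-131121626) encodes a large scavenger receptor cysteine-rich protein of mucosal surfaces that binds and aggregates bacteria. Germ-free mice 1 to 5 were at 497, 455, 458, 414 and 404 RPKM, and humanized mice at 647 to 813 RPKM with a median of 753. Both groups were tight and did not overlap. The mean rose from 446 ± 37.5 (SD, n = 5) to 747 ± 66.6 RPKM (SD, n = 6), an LFC of 0.74 ± 0.09 (SE; FDR = 5.99e-14 in edgeR's exact test), which was the lowest FDR of the 10 genes. Its coefficients of variation, 8.42% and 8.92%, lay below the medians of all tested genes, 10.4% and 16.5%.

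Retnlb (ENSMUSG00000022650, chr16:48816856-48818891) encodes resistin-like molecule β, a goblet cell protein that kills Gram-negative bacteria. It was at 6.94, 8.85, 9.69, 4.98 and 9.24 RPKM in germ-free mice 1 to 5, and humanized mice 1 to 6 were at 41.7, 84.8, 37.4, 28.5, 22.4 and 182 RPKM. All humanized mice lay above all germ-free mice, with numbers 6 and 2 above the other 4. The mean rose from 7.94 ± 1.96 (SD, n = 5) to 66.2 ± 61.0 RPKM (SD, n = 6), an LFC of 3.06 ± 0.53 (SE; FDR = 1.70e-07 in edgeR's exact test). Without humanized mouse 6 the LFC was 2.43 (FDR = 1.79e-10). Its relative Retnla, which is best known from alternatively activated macrophages and adipose tissue, moved the other way, from 5.87 ± 3.23 (SD, n = 5) to 1.32 ± 0.79 RPKM (SD, n = 6; LFC = −2.15, FDR = 1.54e-04 in edgeR's exact test). Of 8 macrophage markers, Cd14 was higher (LFC = 0.70) and Mrc1 was lower (LFC = −1.18), with summed levels of 78.6 to 94.5 RPKM in germ-free and 83.3 to 112 RPKM in humanized mice. Without Cd14 the other 7 summed to 41.6 to 54.5 and 10.5 to 56.2 RPKM, and the median LFC of the 8 was −0.41, with 3 lower at an unadjusted p under 0.05 in edgeR's exact test. The Mrc1 call was lost in the quasi-likelihood test (FDR = 0.0172) and without germ-free mouse 4 or humanized mouse 1.

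Lypd8 (ENSMUSG00000013643, chr11:58379043-58390728) encodes a heavily glycosylated protein that colonocytes shed, which binds flagella and hinders bacterial movement towards the epithelium. It was the most abundant of the 10 genes in both groups, ranking 11 in germ-free and 10 in humanized mice. Germ-free mice 1 to 5 were at 2879, 3066, 3006, 3151 and 3148 RPKM, and humanized mice at 3131 to 5578 RPKM with a median of 3987. The groups overlapped through humanized mouse 3, the lowest of its group, and the other 5 humanized mice were above every germ-free mouse. The mean rose from 3050 ± 113 (SD, n = 5) to 4183 ± 826 RPKM (SD, n = 6), an LFC of 0.46 ± 0.13 (SE; FDR = 0.00224 in edgeR's exact test). This call was lost without germ-free mouse 1 (FDR = 0.0127) or 3 (FDR = 0.0108) and with the quasi-likelihood test (FDR = 0.0206).

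Ang4 (ENSMUSG00000060615, chr14:51763878-51773590) encodes angiogenin 4, a bactericidal ribonuclease. Germ-free mice 1 to 5 were at 2.80, 2.29, 7.60, 7.77 and 3.87 RPKM and humanized mice at 4.44 to 9.64 RPKM with a median of 6.21. The groups overlapped, and the germ-free mice fell into a low set (1, 2 and 5) and a high pair (3 and 4). The LFC was 0.40 ± 0.33 (SE; FDR = 0.441 in edgeR's exact test). After group means were taken off, Ang4 ran against the Reg3 genes, with r of −0.84 and rho of −0.82 for Reg3g and r of −0.78 for Reg3b over the 11 mice. Without germ-free mice 2 and 3, r was −0.73 with Reg3g and −0.58 with Reg3b. Among the 6 humanized mice alone r was −0.38 (rho = −0.31) with Reg3g and −0.25 (rho = −0.26) with Reg3b. Among 10758 genes the most like Ang4 were Slc9a3 (r = 0.88), 2610002J02Rik (r = 0.85), Usp21 (r = 0.84), Tsc22d2 (r = 0.84) and Rab11fip3 (r = 0.82). Of 3 tested relatives in the ribonuclease A family, 0 passed edgeR's exact test, the quasi-likelihood test or DESeq2, and 0 had an unadjusted p under 0.05.

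Lyz1 (ENSMUSG00000069515, chr10:117287796-117292868) encodes the lysozyme of Paneth cells, which cleaves bacterial peptidoglycan. Levels were low, near the middle of the tested genes, at 1.73, 1.90, 2.64, 4.22 and 1.90 RPKM in germ-free mice 1 to 5 and from 0.416 to 5.07 RPKM with a median of 3.37 in humanized mice. Humanized mouse 5 was the lowest of all mice and mouse 6 the highest. The LFC was 0.34 ± 0.49 (SE; FDR = 0.682 in edgeR's exact test). Of 1163 windows of 101 bases in its transcript, 22 (1.89%) also occurred in Lyz2, the macrophage lysozyme, which stood far higher at 71.2 ± 8.30 (SD, n = 5) and 93.5 ± 54.8 RPKM (SD, n = 6), so that the Lyz1 counts are uncertain. None of the other 9 genes shared such a window with another gene of GENCODE M21, and copies that this annotation lacks could not be seen. The alpha-defensins, the other hallmark peptides of Paneth cells, had few counts: of the 11 numbered Defa genes listed, 0 passed the filter, 7 had no count in any mouse, and the highest count of any in 1 mouse was 98, for Defa24. The list also held 17 Defa-ps pseudogenes and 2 Defa-rs sequences, all without a count. Alpha-defensin genes are near-identical copies, so that these counts are uncertain.

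**Figure D4:**
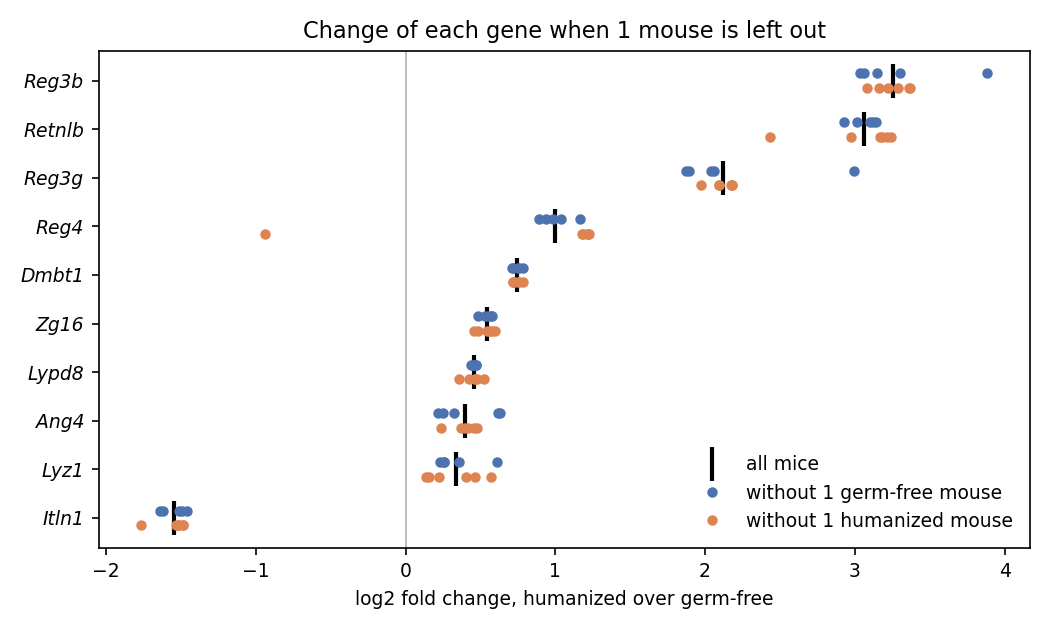
LFC of each gene with all mice (black bar) and with 1 mouse left out at a time, germ-free mice in blue above and humanized mice in orange below. Reg4 moves from 1.0 to −0.94 without humanized mouse 6, Retnlb to 2.43 without the same mouse and Reg3g to 2.99 without germ-free mouse 2.

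Other antimicrobial proteins of epithelial and myeloid cells had 7 of 10 tested genes higher and 0 lower, with a median LFC of 1.15. Over all tested genes 9.2% were higher and 10.1% lower. Of the 13 listed genes in the count table, no untested one exceeded 11 counts in a mouse. Pla2g2a, a secreted phospholipase that attacks bacterial membranes, went from 1.09 ± 0.60 (SD, n = 5) to 68.2 ± 58.3 RPKM (SD, n = 6), an LFC of 5.96 (FDR = 1.13e-14 in edgeR's exact test). Sprr2a3, of the small proline-rich family, rose with an LFC of 1.33, Ltf (lactoferrin) with 2.85 and Slpi (secretory leukocyte peptidase inhibitor) with 2.49. Ltf was scarce, at 0.027 ± 0.022 (SD, n = 5) and 0.197 ± 0.041 RPKM (SD, n = 6) with 0 to 28 counts per mouse. It could pass the filter on low counts only through the humanized mice. Pla2g5, Pglyrp1 and Defb37 were the other 3. With the replicate block 4 of the 10 were higher, and Ltf was not among them (FDR = 0.0111). Lyz2 did not pass, with an LFC of 0.39 (FDR = 0.470).

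Among the cell types that make the 10 proteins, 4 of 12 goblet cell markers were higher: Spink4 with an LFC of 1.35, Tff3 (0.54), Fcgbp (0.53) and Sytl2 (0.48). Muc2, the mucin that builds the colonic mucus, went from 752 ± 181 (SD, n = 5) to 1038 ± 244 RPKM (SD, n = 6) and did not pass (LFC = 0.46, FDR = 0.0509 in edgeR's exact test). Atoh1, which specifies secretory cells, had an LFC of −0.08 (FDR = 0.588). Summed goblet cell markers were at 2841 to 3520 RPKM in germ-free and 3874 to 5028 RPKM in humanized mice. Their part in the Zg16 and Retnlb results was not tested. Without germ-free mouse 1 or 5, 2 goblet cell markers were higher. Only 1 passed the quasi-likelihood test, and 0 passed when libraries were scaled to epithelial markers or to total counts. Leaving out any of 6 mice in turn ended the Spink4 call, and without humanized mouse 6, which kept the call, its LFC was 0.76. Of 10 colonocyte markers 4 were higher, namely Aqp8 (LFC = 8.56), Car1 (1.34), Slc9a3 (0.72) and Ceacam20 (0.53). Summed colonocyte markers were at 4754 to 6822 RPKM and 8625 to 14265 RPKM, and their part in the Lypd8 and Dmbt1 results was not tested. Car1 alone, at 3044 ± 620 (SD, n = 5) and 7698 ± 1770 RPKM (SD, n = 6), set these sums apart: without it the other 9 summed to 2614 to 3137 and 2354 to 3823 RPKM. The genes most like Lypd8 between mice of the same group were Adtrp, Hist1h2bc, Lrrfip2, Acadm and Rfk, each with r of 0.98. Humanized mice 3 and 5 lay farthest from the median for Lypd8, and these r were not computed without them.

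Signals known to act on these genes were then examined. Of the ligands, Il22, Il17a and Il13 were scarce, with at most 2, 4 and 2 counts per mouse, and these 3 were not tested. Of 12 tested genes of the interleukin 22 and interleukin 17 axis, 1 was higher, where 9.2% of all tested genes were higher. At an unadjusted p under 0.05 in edgeR's exact test, 4 were higher and 2 lower. The called gene, Socs3, a target of STAT3, went from 3.57 ± 0.28 (SD, n = 5) to 5.48 ± 1.25 RPKM (SD, n = 6; LFC = 0.62, FDR = 0.00104 in edgeR's exact test). The Socs3 call was lost when libraries were scaled to epithelial markers (LFC = 0.41, FDR = 0.0961). The receptor genes Il22ra1 (LFC = 0.14, FDR = 0.498) and Il22ra2 (LFC = 1.33, FDR = 0.0144) did not pass edgeR's exact test. Stat3 (LFC = 0.23, FDR = 0.0111) and Il17ra (LFC = 0.32, FDR = 0.0112) did not pass it either. DESeq2 called Stat3 (FDR = 0.0041) and Il17ra (FDR = 0.0063), and 4 genes of this axis higher in all. Without humanized mouse 3 edgeR's exact test called 3 higher. When libraries were scaled to epithelial markers or to total counts, 0 were higher and 2 lower.

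The Toll-like receptor and MyD88 axis had 5 of 14 tested genes higher and 2 lower, and 3 higher without germ-free mouse 1. Il18, a cytokine of the epithelium, rose from 7.98 ± 0.48 (SD, n = 5) to 29.1 ± 6.79 RPKM (SD, n = 6; LFC = 1.86, FDR = 1.23e-23 in edgeR's exact test). Tlr2, which senses bacterial lipoproteins, had an LFC of 1.42 and Nfkbiz, an inducible nuclear regulator of NF-kB targets, had 1.36. The 2 lower genes were Il1r1 (LFC = −0.49) and the receptor Tlr4 (LFC = −0.45, FDR = 5.97e-04 in edgeR's exact test). Myd88 itself was at 14.2 ± 0.99 (SD, n = 5) and 13.3 ± 1.28 RPKM (SD, n = 6), and did not pass (LFC = −0.10, FDR = 0.451). When libraries were scaled to epithelial markers, or to total counts, 3 genes of this axis were higher and 4 lower. The flagellin receptor Tlr5 (LFC = 0.28, FDR = 0.135) and the peptidoglycan sensor Nod2 (LFC = 0.41, FDR = 0.254) did not pass either.

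Of 7 tested genes of the type 2 cytokine axis, which is known to drive Retnlb, Il13ra1 (LFC = 0.46) and Areg (LFC = 0.92) were higher and Il33 was lower (LFC = −1.75). Areg lost its call when any of 7 mice was left out. When libraries were scaled to epithelial markers or to total counts, 0 genes of this axis were higher and 2 were lower, and with the former Il13ra1 had an LFC of 0.25 (FDR = 0.0991). Il4ra (LFC = 0.21, FDR = 0.15) and Stat6 (LFC = −0.12, FDR = 0.234) did not pass edgeR's exact test. Nor did the ligands Il4 (9 to 26 counts per mouse, LFC = 0.73, FDR = 0.0725) and Tslp (0 to 33 counts, LFC = −1.16, FDR = 0.0825).

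**Figure D5:**
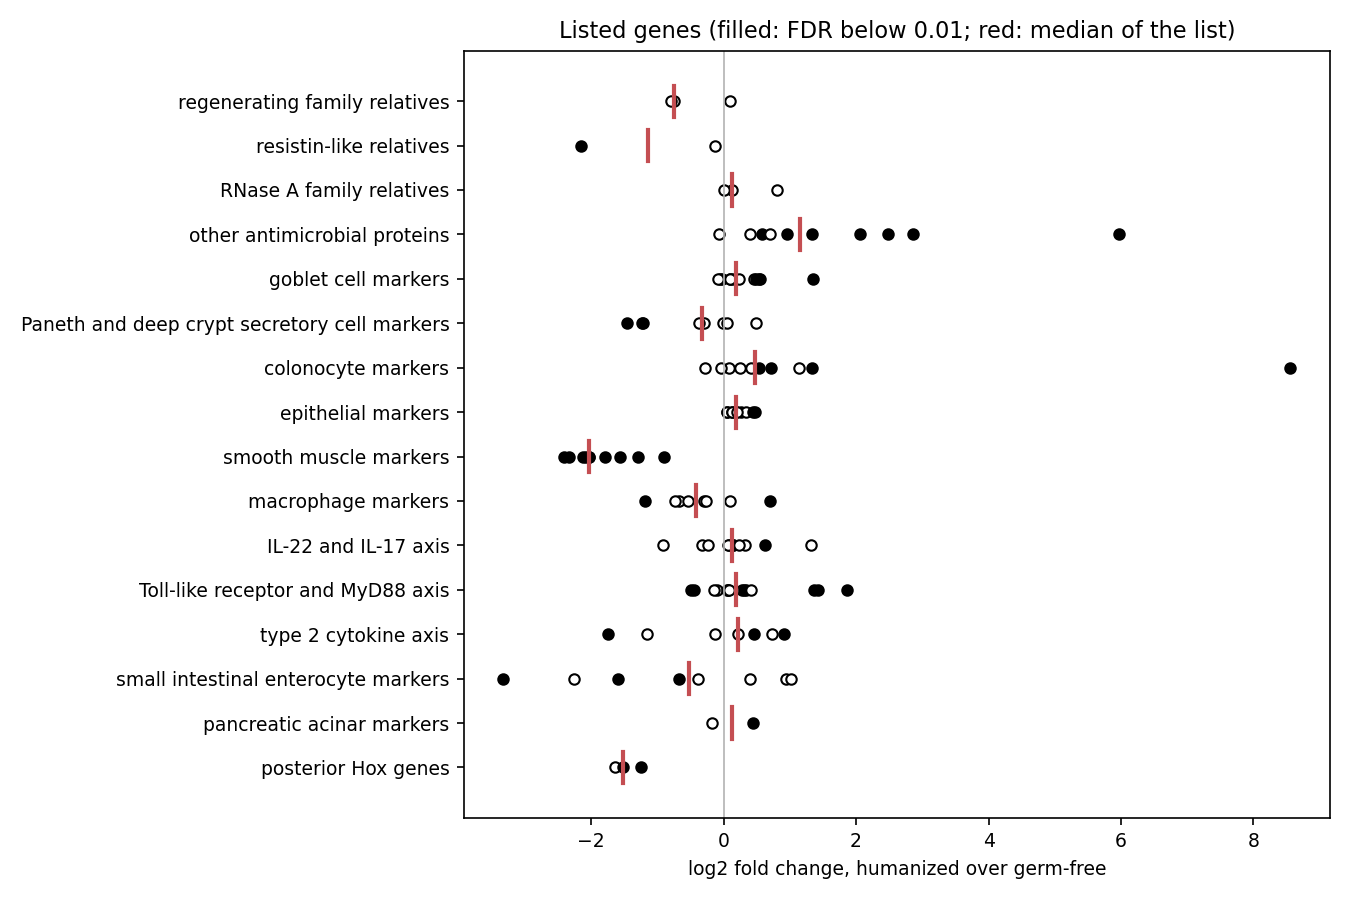
LFC, humanized over germ-free, of each tested gene of the lists of relatives, cell type markers and signalling genes, filled where the FDR was below 0.01, with the median of each list as a red bar. The other antimicrobial proteins have a median of 1.15 and all 10 smooth muscle markers lie below 0.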

How the data were processed

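Colonic RNA of 5 germ-free and 6 humanized mice was sequenced as 101-base paired-end reads from TruSeq v2 libraries, whose kit does not mark strand. Per the methods of the study and the submitters' processing notes, reads were converted with bcl2fastq 2.17.1.14 and aligned to mm10 with TopHat2 2.1.0 and Bowtie2 2.2.3, and featureCounts of Subread 1.4.6-p5 counted reads per gene. The annotation release and strand setting are not given in the sources used here. The authors deposited raw counts of 43346 genes without normalization, with a position and a length per gene.

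Here, columns were assigned to groups by their labels, and no column was left out. The steps followed the methods of the study but in edgeR 4.0.16 with R 4.3.3, an earlier edgeR version than the study's. They were filterByExpr (minimum count 10, minimum total count 15), TMM normalization, estimateDisp and the exact test. Benjamini–Hochberg adjustment was over 19863 genes, with a threshold of FDR below 0.01. Standard errors come from edgeR's quasi-likelihood fit, and RPKM from TMM-normalized libraries and the deposited lengths. Levels of genes are compared only per length. Depth was 39125290 to 64148538 counts per mouse. The labels name separate mice but no sequencing batch. Likeness between genes is Pearson's r of log2 CPM (prior count 2) after removal of group means, among genes with a mean of at least 10 CPM in a group.

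The genes named are all 10 members, at most the 4 genes with the lowest FDR of each list among those that passed, listed receptors and cytokines as values, and the 5 genes most like Reg3g, Ang4 and Lypd8. The members and lists were chosen with earlier results of these data known. Genes outside this rule were named after their values were seen: Reg1, Reg2, Reg3a, Lyz2, Muc2, Atoh1, Stat3, Stat6, Myd88, Pla2g5, Pglyrp1, Defb37, Fabp6 and Defa24. The same holds for Apoa4, Apoa1, Alpi, Rbp2, Nupr1, Habp2, Cd24a, Kit and Pnliprp2. Motifs were searched on both strands of the 250 bases before each RefSeq start site, and windows of 101 bases of GENCODE M21 transcripts were searched for sequence shared between genes. The fits were tested on simulated data. Alternatives were the quasi-likelihood test, DESeq2 1.42.0, RLE, upper-quartile and total-count normalization, scaling to 11 epithelial markers, no filter, a minimum of 10 counts in each of the mice, an FDR threshold of 0.05, leaving out each mouse, and a replicate block with, added later, the same mice without it.

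The labels number the mice within each group, and the numbers name different animals. The correlation of deviations from the group means between mice of the same number lay between −0.13 and 0.09, so the numbers were not taken as pairs.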

Additional observations from a re-analysis of the deposited data

Results flagged for a closer look

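Each gene was checked for a mouse far from the rest of its group, by setting the gap to the nearest mouse against the range of the group on the log2 scale of CPM, counts scaled to library size (Dixon's test at 95%). Chance flags about 1 group in 20, and 20 groups of values were checked. Reg4 in humanized mouse 6 gave 0.799, at 10.08 against 6.31 in the next mouse. Itln1 in humanized mouse 2 gave 0.776, at 2.46 against 1.59.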

How the results depend on the processing

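The numbers of the mice did not pair them (only mouse 3 of 5 correlated best with its own number), and the fit with the replicate block covers mice 1 to 5 by the quasi-likelihood test. With the block 3 of the 10 genes were higher and 501 of all genes were higher and 501 lower. Under it Reg3g had an LFC of 2.54, Zg16 0.52 and Lypd8 0.40, none of them past the threshold, and 2 changed sign, Reg4 (−0.94, FDR = 0.0457) and Lyz1 (−0.13). The same mice without the block, a fit added after the data were seen, gave 3 higher and 2 lower, 1032 and 1046 over all genes, with Reg3g at 1.98, Zg16 at 0.54 and Lypd8 at 0.42, not passing, and Reg4 at −0.94. The quasi-likelihood test on all mice called 3 of the 10 higher and left Reg3g (2.12), Zg16 (0.54) and Lypd8 (0.46) uncalled, with 1401 genes higher and 1298 lower overall. Total-count normalization moved the median LFC of all genes to −0.18, gave 773 genes higher and 3609 lower, and left Lypd8 (0.26) uncalled. Scaling to epithelial markers gave 613 higher and 2904 lower and left Lypd8 (0.23) uncalled. Both scalings gave 5 of the 10 genes higher, 4 of them without overlap, and 1 lower. At FDR below 0.05, 2780 genes were higher and 2905 lower.

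Leaving out 1 mouse at a time gave 5 to 6 of the 10 genes higher and 1 to 2 lower, 5 to 6 and 1 to 2 without overlap, and 1336 to 2088 higher and 1486 to 2323 lower over all genes. Lypd8 then ranged from 0.36 to 0.53 and Reg4 from −0.94 to 1.23. Reg3a, never past the threshold, changed sign under total counts (−0.12), epithelial scaling (−0.17), the block (−0.016) and without it (−0.47), and ranged from −0.47 to 0.87 without 1 mouse. Il22ra1 did so under total counts (−0.054) and epithelial scaling (−0.093). DESeq2 called the same 6 higher and 1 lower, with 2185 and 2182 over all genes, and gave Reg4 no adjusted p. RLE, upper-quartile and both filters on low counts changed no call among the 10 genes, and under upper-quartile scaling 6 were higher without overlap. Il22, Il17a, Il13 and the alpha-defensins had too few counts to be tested at this depth.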

Other observations

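Humanized mouse 6 exceeded every other mouse by over 5 times in 7 of 10237 genes with at least 10 CPM (counts scaled to library size) there, which were chosen after their values were seen. Besides Reg4 these were Slc37a2 (161 against at most 3.36 CPM elsewhere), Gm6086 (120 against 4.04), Cps1 (62.4 against 4.81), Lgals2 (21.2 against 2.15), Rnf152 (44.9 against 5.06) and Mttp (23.0 against 4.55). Humanized mouse 2 had 5 such genes and each other mouse had 0 to 2. Reg4 and Retnlb, both highest in mouse 6, had r of 0.70 between mice of the same group and rho of 0.28, and r was 0.59 without humanized mice 2 and 6. Zg16 and Lypd8 had r of 0.69, which fell to 0.08 without humanized mice 3 and 5.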
